A study of Rattus norvegicus with 5 samples.

Results

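Rat lungs that had received EHC-93, a reference preparation of outdoor urban dust, were compared between a middle and a late window after the dust was given. The comparison set the dust intermediate array directly against the dust late array, 2 of the 5 arrays of the series, and no control array entered the difference. All 8740 probe sets that do not belong to the array's own control transcripts were used, out of 8799 in all. The dust was given by intratracheal instillation, which places a suspension in the windpipe. The intermediate array carried equal RNA amounts from lungs taken at 15, 18 and 21 h, and the late array from lungs taken at 24, 32 and 40 h. The remaining arrays give context only: a dust early array (2, 4 and 6 h), a sham array after saline instillation (2, 15 and 24 h) and an untreated array with RNA of 3 rats that were not instilled. Each group was 1 pooled array, so no difference has a replicate check, an error or a p-value. Strain, age, clock time of sampling and the number of rats in each instilled pool are not stated in the sources used here.

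As background, a lung that meets inhaled or instilled dust passes through an inflammatory phase led by granulocytes and then a phase in which macrophages clear the material. Cells with a high secretory load raise the chaperones of the endoplasmic reticulum, the compartment where secreted proteins are folded. Rodent lungs also hold heart-like muscle, since sleeves of cardiac muscle extend along the pulmonary veins, and a sample of whole lung can include more or less of it.

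Values are the deposited intensities scaled to a common array median, called scaled intensity here, and differences are log2 of intermediate minus log2 of late. Scaled values under 172.33, the 40th percentile of all values, were set to that floor. A difference against a value at the floor is therefore a lower bound, and a probe set at the floor on both arrays was left out. A probe set was called where the arrays were at least 2-fold apart (1 on the log2 scale). Lung identity was clear on both arrays: the 4 named markers of alveolar type 2 cells, the surfactant producers, summed to 179879 on the intermediate array against 176483 on the late array. The 5′ end of long control transcripts was read less well on the intermediate array. The 5′ probe set of beta-actin gave 9.07% of its 3′ probe set there against 19.6% on the late array, and that of GAPDH 23.6% against 38.1%. Across the other 3 arrays these ranged from 14.7% to 43.0% for beta-actin and from 25.4% to 67.2% for GAPDH. The part of this difference in the results below was not tested. In pooled tissue RNA, fewer cells of a type and less RNA per cell cannot be told apart.

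Outside the rc_AA probe sets, the 2 dust windows lay close together and differed about evenly in both directions. Probe sets whose identifiers start with rc_AA, built on expressed sequence tags, are given apart. Those starting with rc_AI or rc_H, also built on such tags, are counted with the other probe sets. Of 3988 other probe sets above the floor on at least 1 of the 2 arrays, 49 were at least 2-fold higher on the intermediate array (1.23%) and 52 were at least 2-fold higher on the late array (1.3%). Their median difference was -0.01, and for those above the floor on both arrays the SD of the differences across probe sets was 0.37. By comparison, the sham and untreated arrays, neither of which met dust, were at least 2-fold apart in 162 of 4093 other probe sets (3.96%) and in 60 of 1640 rc_AA probe sets (3.66%). Thus fewer of the other probe sets stood 2-fold apart between the 2 dust windows than between sham and untreated. On the late side, the lower value was at the floor for 18 of the 52 calls, and on the intermediate side for 17 of the 49. The counts were 311 and 300 with the floor at the 20th percentile and 18 and 9 with it at the 60th.

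**Figure D1:**
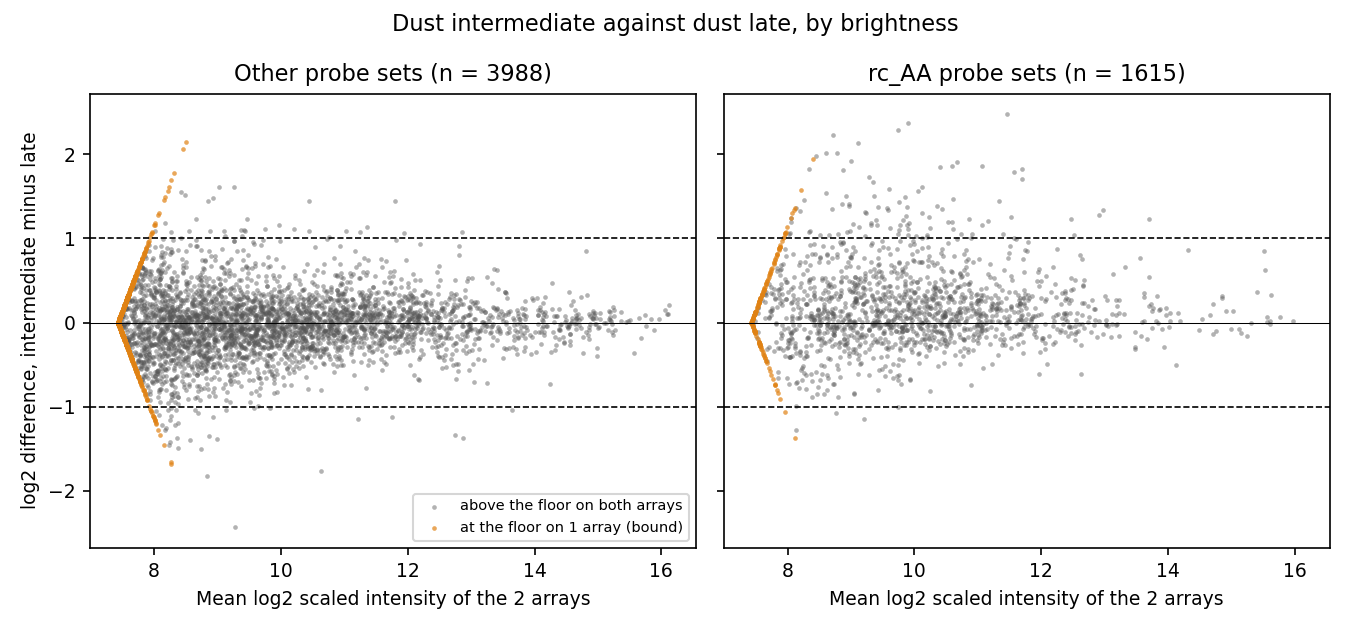
Each point is 1 probe set above the floor on at least 1 of the 2 arrays, with the mean log2 scaled intensity of the dust intermediate and dust late arrays on the x axis and their log2 difference on the y axis; orange points are lower bounds, and dashed lines mark a 2-fold difference. The 3988 other probe sets (left) lie evenly around 0, while the 1615 rc_AA probe sets (right) have 110 points above the upper line and 6 below the lower one.

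The rc_AA probe sets leaned to one side. Of 1615 tested, 110 were at least 2-fold higher on the intermediate array (6.81%) and 6 were at least 2-fold higher on the late array (0.372%). With rc_AA and other probe sets scaled to equal medians separately, the counts were 63 and 19. At a stricter 3-fold limit the counts were 23 and 0, against 7 and 5 among the other probe sets. The rc_AA median difference was 0.12, and 64.2% of those above the floor on both arrays were positive, against 48.3% of the other probe sets. Within the other probe sets, rc_H ones had a median of 0.21, with 3 of 80 tested called on the intermediate side and 0 on the late side. For rc_AI the median was 0.004, with 6 and 9 of 749 called. All probe sets above the floor on both arrays were ordered by brightness into 4 groups, and the lean of rc_AA was present in each. From dimmest to brightest, 15 of 290, 34 of 396, 34 of 447 and 14 of 324 were called higher on the intermediate array. At most 3 rc_AA probe sets in a group went the other way. Among the other probe sets the counts were 8, 13, 6 and 5, with 18, 9, 2 and 5 the other way. Among the 110, the late array was the lowest of all 5 arrays for 100, while the intermediate array was the highest for 66. The call itself uses these 2 arrays, so it partly sets such ranks. Among the 49 other probe sets called on the intermediate side, the late array was the lowest for 32 and the intermediate array the highest for 18.

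The 8 largest measured differences among rc_AA probe sets with a gene symbol were of genes with varied known roles. Prdx3, a mitochondrial peroxiredoxin that removes peroxide, read 2172 on the intermediate array against 421 on the late array with 1509 early, 1218 in sham and 1511 untreated, which is 5.16-fold. The late array alone was low, and a second probe set built on the same tag read 2192 against 1419, a difference of 0.63. Csnk2a1, a catalytic subunit of casein kinase 2, read 1898 on the intermediate against 388 on the late array, and 1274, 1004 and 1316 early, in sham and untreated. Again only the late array was low, yet a probe set of this gene outside rc_AA read 307 against 339, a difference of -0.15. Rac1, a small GTPase of the actin cytoskeleton, read 3171 against 842. Outside the 8, Gpx2, a glutathione peroxidase of epithelia, read 5682 against 1647. Tmem69 (log2 difference 2.23), Med6, a subunit of the Mediator complex (2.14), Triobp, an actin-bundling protein (2.02), Ptpn3, a tyrosine phosphatase (1.99), and Vcf1 (1.92) complete the 8 with Rac1. Med6, for example, read 1155 on the intermediate array against 262 on the late array, and 948, 874 and 1111 early, in sham and untreated. A dimmer Ptpn3 probe set on the same tag went the other way. It was at the floor on the intermediate array and read 193 on the late array (-0.16, a bound).

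Lower bounds against the floor came from Epb41, a protein of the membrane skeleton (intermediate 662, at least 1.94), Dgcr6 (443, at least 1.36) and Prrg1 (424, at least 1.30). Epb41 has a second rc_AA probe set that pointed the other way, with a difference of -0.36. The 4 named rc_AA probe sets higher on the late array were those of Fam234a (608 against 1216), Cops7a, a subunit of the COP9 signalosome (398 against 881), Bmyc (180 against 436) and Apob, the apolipoprotein of low-density lipoprotein, at the floor on the intermediate array against 445. A second Cops7a probe set on the same tag read 525 against 523, so the call was not shared by it. Further Bmyc probe sets outside rc_AA gave -0.32 and 0.22, both bounds against the floor. The 4 further Apob probe sets were at the floor on both arrays.

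The lean was uneven over the rc_AA numbers, an observation made after the values were seen. Sorted by the first 3 digits of the tag number, the largest runs of consecutive numbers were 799 to 801 and 891 to 894. The first run had 43 of 391 probe sets higher on the intermediate array (10.997%), and the second had 61 of 647 (9.43%). Together they held 104 of 1038 (10.02%), against 6 of 577 (1.04%) in the remaining rc_AA probe sets. The late array was the lowest of the 5 arrays for 42 of the 43 and for 56 of the 61, ranks that the call itself partly sets. In the run from 799 to 801 the late array was also at least 2-fold below the early array for 43 probe sets, with 4 the other way. Against the untreated array the same run gave 34 and 4, and against sham 26 and 15.

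**Figure D2:**
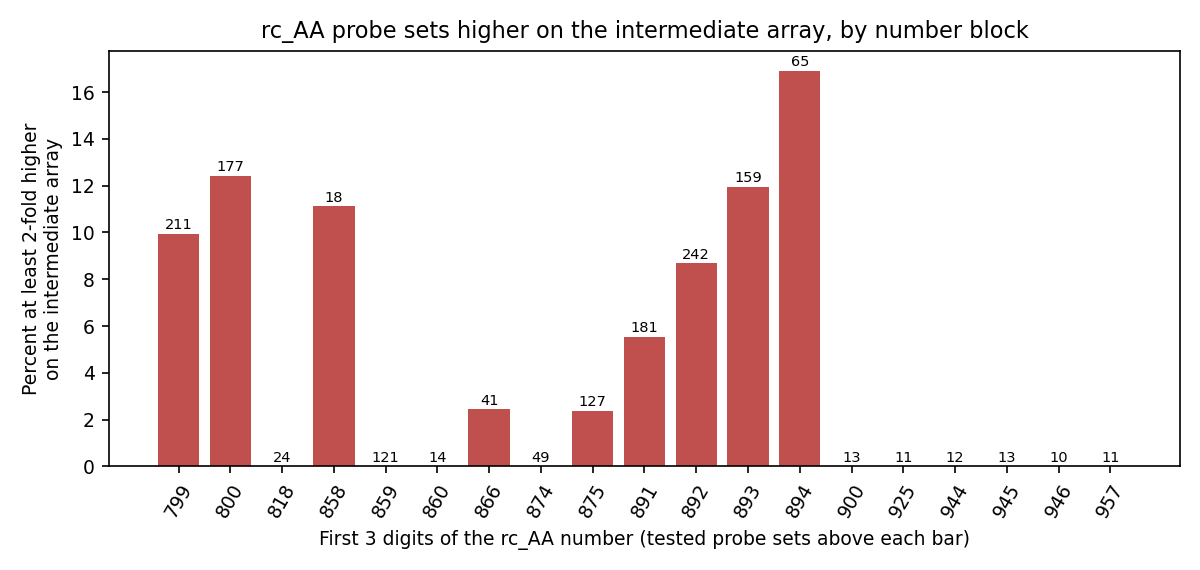
Bars give the percent of tested rc_AA probe sets that were at least 2-fold higher on the dust intermediate than on the dust late array, by the first 3 digits of the tag number; the number tested stands above each bar, and blocks with fewer than 10 are not drawn. The blocks 799, 800 and 891 to 894 reach 5% or more, as does 858, in which both calls are probe sets of Fst.

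Other probe sets of the same genes shared the lean only in part. Of the 88 named genes with an rc_AA call on the intermediate side, 12 had a tested probe set outside rc_AA. These genes had 18 such probe sets, of which 12 were also positive and 1 passed 2-fold. Across all other probe sets 48.6% were positive. The 110 calls came from 103 tags, of which 18 had 2 tested probe sets. For 7 of these tags both probe sets were called, and for 2 the second was negative. Pdia3, a disulfide isomerase of the endoplasmic reticulum, shows the split: its rc_AA probe set read 818 against 288 (1.51) and its other probe set 7235 against 5867 (0.30).

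Genes of heart muscle were the clearest group in the comparison. Taking 1 probe set per gene, 101 of 3370 genes were at least 2-fold higher on the intermediate array (3%) and 24 were at least 2-fold higher on the late array (0.712%). Of all 3370, 54.0% had a positive difference, and of the 2456 tested without rc_AA probe sets 48.7%. Of the list for cardiac muscle of the pulmonary veins, 25 of 32 genes were named on the array and 20 were tested. Of these, 11 were at least 2-fold higher on the intermediate array and 0 on the late array, and the list's median difference was 1.04 against 0.03 over all genes tested. Without rc_AA probe sets, where 22 of 2456 genes were called on the intermediate (0.896%) and 21 on the late side (0.855%), 7 of 16 cardiac genes were called and the median was 0.95. After quantile normalization 7 of the 20 were called and the median was 0.92. Genes of this list made up 13 of the 49 probe sets higher on the intermediate array outside rc_AA and 0 of the 52 higher on the late array.

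Proteins of the contractile apparatus led the group. Tnni3, the cardiac troponin I that holds contraction in check between beats, read 5885 on the intermediate array against 2162 on the late array, 2759 early, 4795 in sham and 9330 untreated, a 2.72-fold difference between the dust windows. The untreated array was the highest and the late array the lowest, and a second Tnni3 probe set differed by 1.11. Tnnt2, cardiac troponin T, read 3058 against 1433, and Actc1, the cardiac actin, 12875 against 5079. Myh6, the alpha myosin heavy chain of the atria and of the adult rodent heart, read 2122 against 816 (1003 early, 1594 sham, 3111 untreated). Myh6 and Actc1 are represented by rc_AA probe sets. Of the Myh6 probe sets outside rc_AA, 1 read 620.4 against 265 (1.23) and 1 read 354 against 294 (0.27). Myh7, the beta heavy chain, read 3535 against 1678. This Myh7 probe set and all those of Myh6 are of a kind that can share signal with near copies.

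The light chains and the atrial hormone were also highest on the untreated and lowest on the late array. Myl7, the atrial regulatory light chain, read 12004 against 4931, and Myl4, the atrial essential light chain, 2450 against 1213. Myl2, the ventricular light chain, read 1010 against 475, but another Myl2 probe set read 807 against 756, a difference of 0.10. Nppa, which encodes the atrial natriuretic peptide, read 1261 on the intermediate array against 581 on the late array, with 1053 early, 998 in sham and 2191 untreated. Its 3 further probe sets differed by 1.61, 1.48 and 0.98, so all 4 were positive and 3 passed 2-fold. Sarcomere anchors were known only as bounds: Actn2, the alpha-actinin of the Z disc, read 514 against a late value at the floor (at least 2.98-fold), and Ldb3, a Z-disc adaptor, 359 against the floor (at least 2.08-fold).

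Other genes of heart muscle, among them those of energy and calcium handling, stayed under 2-fold. Csrp3, a muscle LIM protein, read 860.3 against 440.1, Fabp3, the fatty acid carrier of heart muscle, 1052 against 551, and Ckmt2, the mitochondrial creatine kinase, 724 against 395. These differences, 0.97, 0.93 and 0.87, fell short of 2-fold. Atp2a2, the calcium pump of the sarcoplasmic reticulum, differed by 0.39, with further probe sets at 0.75, 0.03 and -0.42, and Gja5, a gap junction protein that is also made by arterial endothelium, by 0.38. Only Casq2, the cardiac calsequestrin (-0.08), and Slc8a1, the sodium-calcium exchanger (-0.51), were negative.

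Set against all 5 arrays, the late array was the lowest for 15 of the 20 cardiac genes and the untreated array the highest for 16. The 6 cardiac markers listed for cell types summed to 37205 on the intermediate array and to 15002 on the late array, with 19725 early, 29386 in sham and 52890 untreated. The intermediate sum was 2.48-fold the late sum; it lay between sham and untreated, and the late sum was below all other arrays. The share of heart-like muscle in each pool was not measured, and its part in these differences was not tested.

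**Figure D3:**
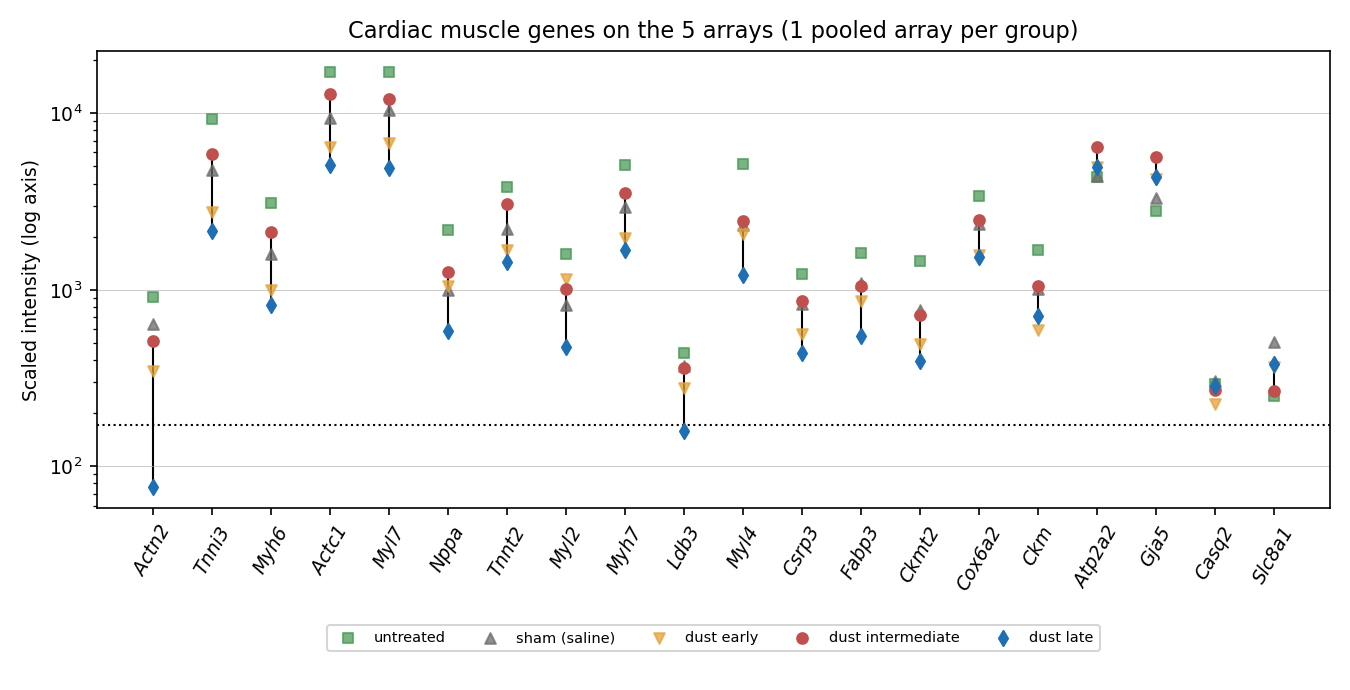
Scaled intensity (log axis) of the 20 tested cardiac muscle genes on the 5 arrays, 1 pooled array per group, ordered by the difference between dust intermediate and dust late, which a line joins; the dotted line is the floor at 172.33. The untreated array is the highest point for 16 genes and the late array the lowest for 15.

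Muscle and fat genes outside that list differed less evenly. Des, desmin, the intermediate filament of all muscle types, read 1494 on the intermediate array against 670.5 on the late array, and 706, 682 and 998 early, in sham and untreated, so here the intermediate array stood highest. Pgam2, the muscle phosphoglycerate mutase, read 792 against 387, with 858 in sham and 1247 untreated. It was the sole skeletal muscle gene called of 11 tested. Of the 11 smooth muscle genes tested, Des was called on the intermediate side and Kcnmb1, a subunit of the smooth muscle potassium channel, on the late side (284 against 600.2), and the median was 0.26. Beside these muscle lists, 3% of all genes tested were called on the intermediate side and 0.712% on the late side. Contractile smooth muscle genes stayed under 2-fold: Acta2 read 14246 against 11207 on its brightest probe set, an rc_AA one, with further ones at -0.18 and -0.39, and Myh11 read 1147 against 775. Of the 11 fat genes tested none was called and the median was 0.21. Cox8b, a cytochrome oxidase subunit of heart and brown fat, read 909 against 499.8, but a second probe set gave 557 against 671, a difference of -0.27. Cfd, the adipocyte protease adipsin, read 604 against 380.1.

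Chaperones of the endoplasmic reticulum, each read on its brightest probe set, were all higher on the intermediate array by less than 2-fold. All 11 tested genes of the list had positive differences, from 0.12 to 0.91, with a median of 0.40 against 0.03 over all genes tested, and 0 passed 2-fold on either side. The intermediate array was the highest of all 5 arrays for 9 of them. Under the alternative scalings the list's median lay between 0.32 and 0.44.

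Hspa5, the main luminal chaperone and sensor of folding load also called BiP, read 9815 on the intermediate array against 5234 on the late array, 6869 early, 4071 in sham and 3590 untreated. The 3 dust arrays were above both arrays without dust, and a second Hspa5 probe set read 6511 against 3400 (0.94). Pdia6, a disulfide isomerase, read 8281 against 4741 on an rc_AA probe set, with 3754, 3535 and 3965 elsewhere. Canx, the membrane lectin calnexin, read 13466 against 8741 (0.62), but its 4 further probe sets gave 0.58, 0.34, -0.24 and -0.10. Hsp90b1, the luminal HSP90 homologue, read 11716 against 8038 (0.54), with dimmer probe sets at 0.22 and 0.00. Pdia4 read 1487 against 1078, and P4hb, the classical protein disulfide isomerase, 17596 against 14320; further P4hb probe sets gave 0.27 and -0.45. Calr, the soluble lectin calreticulin, read 18605 against 15193, and its further probe sets gave 0.32 and 0.13. Dnajb9 and Hyou1, a co-chaperone and a chaperone of the same compartment, were the members whose early reading was the highest, 1112 and 1875, with 676 and 1678 on the intermediate and 512 and 1425 on the late array.

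Members of this list are textbook targets of the endoplasmic reticulum stress response element, letters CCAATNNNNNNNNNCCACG, which was searched on both strands from 250 bases before to 50 bases after each gene's start in the RefSeq promoters of the rat assembly GRCr8. Of 9 list genes with a promoter entry, 4 held a match (44.4%), against 21 of all 27457 promoters (0.0765%). The matches are printed to show the element in chaperone genes whose values are given above; capitals mark the match, and each is given on the gene's own strand.
Hspa5: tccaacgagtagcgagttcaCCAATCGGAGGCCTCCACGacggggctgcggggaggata
Hsp90b1, distal: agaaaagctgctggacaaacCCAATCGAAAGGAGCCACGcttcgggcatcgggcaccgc
Hsp90b1, proximal: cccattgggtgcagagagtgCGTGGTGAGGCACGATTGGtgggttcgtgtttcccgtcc
Canx: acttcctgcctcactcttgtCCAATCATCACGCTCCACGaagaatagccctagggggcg
Calr: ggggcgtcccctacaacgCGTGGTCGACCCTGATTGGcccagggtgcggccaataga
The Hspa5 window is chr3:38452953-38453011 on the plus strand, and the match ends 25 bases before the start. The Hsp90b1 windows are chr7:23012431-23012489 and chr7:23012327-23012385, both on the minus strand, and the proximal match reads in the reverse direction. The Canx window is chr10:35158049-35158107 on the minus strand. The Calr window is chr19:40213117-40213173 on the plus strand, again with a reverse match. A match is a description of these letters and does not show binding.

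Heat shock proteins of the cytosol and mitochondria were mostly positive too, and 0 of 13 tested passed 2-fold. Of the 13, 10 were positive, beside 54.0% of all genes tested, and the median was 0.22. Hsph1, a large cytosolic chaperone, read 2401 on the intermediate array against 1407 on the late array, with 3900.5 early, 1119 in sham and 1138 untreated. Its readings put the 3 dust arrays in descending order over time, all above sham and untreated. Hspd1, the mitochondrial chaperonin HSP60, read 9892 against 6867, and its partner Hspe1 7314 against 6276, and for both the intermediate array was the highest of all 5. Hspa1a, the inducible HSP70, read 11624 early but 787 and 557 on these later arrays, with 615 in sham.

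The heat shock element, searched as GAANNTTCNNGAA on both strands in the same windows, occurred in 4 of 11 list promoters (36.4%) and in 202 of all 27457 (0.736%). The genes were Dnaja1, Hspd1, Hspe1 and Hsph1. Hspd1 and Hspe1 lie head to head and share the same stretch of DNA, so their matches are not separate. The match of Dnaja1 lies after the gene's start and is not printed. The shared stretch and the Hsph1 window are shown to let the element be seen in its place.
Hspe1: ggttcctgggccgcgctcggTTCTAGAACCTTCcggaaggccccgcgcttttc
Hsph1: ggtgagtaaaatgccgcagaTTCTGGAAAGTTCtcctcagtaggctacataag
They are chr9:64084242-64084294 and chr12:10427312-10427364, both on the plus strand, and in both the capitals are the element in reverse. In Hspe1 a second match on the other strand overlaps the marked bases.

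Proteasome and respiratory chain genes differed by small amounts, mostly in the same direction. Over all genes tested 54.0% were positive. Of 27 proteasome genes, which encode the particle that degrades tagged proteins, 23 were positive, 0 passed 2-fold and the median was 0.19. The intermediate array was the highest of the 5 for 18 of them. Psma7, a ring subunit, read 6660 against 4927, and Psmc5, an ATPase of the cap, 2525 against 1908. Of 48 genes of the mitochondrial respiratory chain, 42 were positive with a median of 0.14, and 1 was called, Sdha, a subunit of succinate dehydrogenase measured on an rc_AA probe set (4300 against 2149). Under the alternative scalings both medians stayed positive, between 0.10 and 0.22 for the proteasome and between 0.08 and 0.12 for the respiratory chain. Cytosolic ribosomal proteins gave a median of -0.0006 over 37 genes, with 18 positive.

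Clock genes were mostly lower on the intermediate array. The 2 pools cover different hours and the clock time of sampling is not stated. Time of day and time after dust therefore cannot be told apart here. Of 9 clock genes tested, 8 were negative with a median of -0.38, and 1 was called, on the late side. Of all genes read without rc_AA probe sets, as these 9 were, 48.7% were positive and 0.855% were called on the late side. Dbp, a rhythmic transcription factor at the output of the clock, read 860.2 on the intermediate array against 2930.1 on the late array, 751 early, 698 in sham and 1050 untreated. The late array stood alone at 3.41-fold above the intermediate, and a second probe set gave 244 against 863. Nr1d2, a nuclear receptor that represses the activator arm of the clock, read 421 against 815, with 819, 731 and 692 elsewhere, so for this gene the intermediate array was the low one. Its relative Nr1d1 read 799 against 1080.1, and 638 against 1288 on a second probe set, which passed 2-fold. Tef, related to Dbp, read 679 against 915, and the repressors Bhlhe40 and Bhlhe41 read 192 against 249 and 1029 against 1238. Bmal1, an activator of the clock whose transcript is known to peak opposite to that of Dbp, was the member with a positive difference, 258 against a late reading at the floor, at least 0.58. Per2 was at the floor on the intermediate array and 213 on the late array, and Wee1, a cell cycle kinase under clock control, read 196 against 215.

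The clock's activator pair binds the E-box, searched as CACGTG, a palindrome that reads alike on both strands. It occurred in 3 of 8 list promoters (37.5%) and in 1826 of all 27457 (6.65%). The matches were in Tef and in both Bhlhe genes, and are printed as the members of this list with the letters in their window.
Tef: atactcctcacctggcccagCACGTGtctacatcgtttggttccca
Bhlhe40: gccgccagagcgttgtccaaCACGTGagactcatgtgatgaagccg
Bhlhe41: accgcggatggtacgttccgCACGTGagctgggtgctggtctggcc
They are chr7:115206609-115206654 and chr4:143174210-143174255 on the plus strand and chr4:180569378-180569423 on the minus strand. The windows of Dbp, Nr1d1 and Nr1d2 held no such match, which says only that these letters are not in that stretch.

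**Figure D4:**
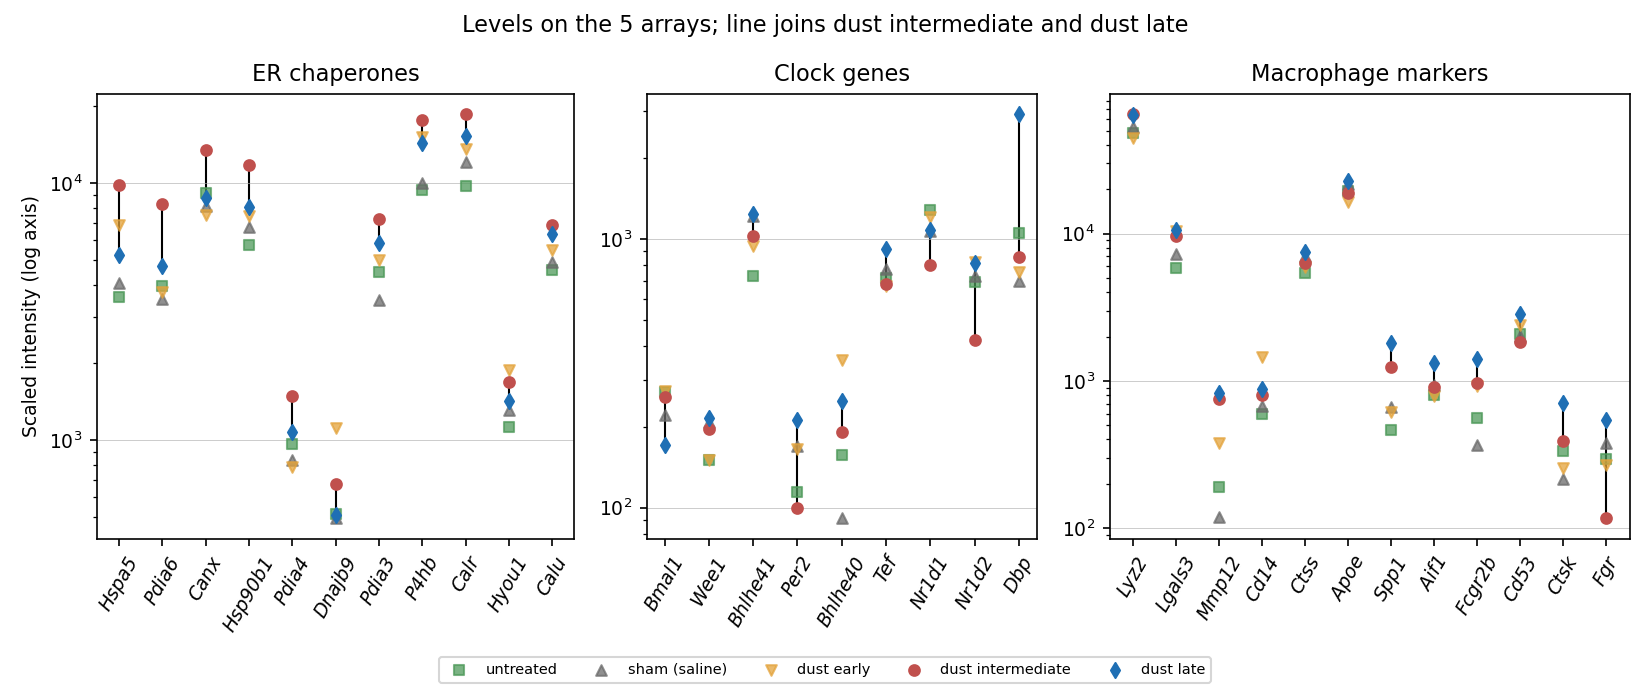
Scaled intensity (log axis, a separate range in each panel) on the 5 arrays for the tested members of 3 lists, with a line joining dust intermediate and dust late for each gene. All 11 chaperones have the intermediate point above the late point, while 8 of 9 clock genes and 11 of 12 macrophage genes have it below.

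Macrophage genes were higher on the late array, mostly by less than 2-fold. Of 12 tested, 11 were negative with a median of -0.40, 1 was called on the late side, and the late array was the highest of all 5 for 10. Among all genes tested, 54.0% were positive with a median of 0.03, and 0.712% were called on the late side. A higher floor, the 60th percentile, gave the macrophage list a median of -0.26, and only genes above the floor on both arrays one of -0.27. The called gene was Fgr, a Src-family kinase of myeloid cells, at the floor on the intermediate array and 544 on the late array (269 early, 377 sham, 293 untreated). Ctsk, a collagen-degrading cathepsin, read 393 against 708, and Spp1, osteopontin, 1243 against 1797 with 612, 659 and 463 elsewhere. For Spp1 both later dust arrays lay above the other 3. Fcgr2b, the inhibitory receptor for IgG, read 962 against 1416 and Aif1, a calcium-binding protein of macrophages, 909.7 against 1320.3. Mmp12, the macrophage elastase, differed little between the windows, at 748 and 821, with 380.4 early, 189.6 untreated and a value under the floor in sham. Lyz2, a lysozyme made by macrophages and also by alveolar type 2 cells, was at 65068 and 64096. The macrophage markers listed for cell types, 4 of 5 above the floor with Csf1r at the floor on all 5 arrays, summed to 3346 on the intermediate array against 4741 on the late array, and to 1360 to 2172 on the other 3.

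Granulocyte genes had no common direction. S100a8 and S100a9, the calprotectin subunits stored by neutrophils, read 1310 against 786 and 2734 against 1839 and were both highest on the early array, at 2118 and 2847. Padi4, which citrullinates histones in neutrophils, read 1430.1 against 989. These 3 were the granulocyte markers listed for cell types that lay above the floor. They summed to 5474 on the intermediate array against 3613 on the late array, with 5921 early, 2564 in sham and 1975 untreated. Cxcr1, a receptor for neutrophil-attracting chemokines, was called on the late side with 330 against 720, but read 1032 in sham. The median over 7 genes was 0.36. It was -0.19 over the 5 genes tested without rc_AA probe sets, so its sign rests on which genes are included. Genes of red cells were all negative, 4 of 4, with a median of -0.44; Hbb, the beta globin, read 4012 against 5396 with 10489 early, 9108 in sham and 3540.2 untreated. Of 16 lymphoid genes, 11 were negative and 0 were called, with a median of -0.20. For comparison, 54.0% of all genes tested were positive, with a median of 0.03, and 0.712% were called on the late side. Lck, a kinase of T cells measured on an rc_AA probe set, read 1880.1 against 1029 (0.87), whereas Cd8a and Cd8b, the coreceptor chains of cytotoxic T cells, gave -0.52 and -0.71.

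Agreement between probe sets of a called gene depended on the group. Of the 29 genes called on the intermediate side outside rc_AA, 7 belong to the cardiac list. Of these, 6 had further tested probe sets. All 10 had the same direction and 7 passed 2-fold, at least 1 for each gene. Those of Myh6 can share signal with near copies. For Tnni3, Myl4, Myl2 and Myh7 the partner that passed is built on the same sequence record as the called probe set. The Myl2 probe set of another record differed by 0.10. Of the 22 others, 10 had further tested probe sets, and 6 of 15 had the same direction and 0 passed 2-fold. Of the 38 genes on the late side, 21 had further tested probe sets, and 23 of 35 had the same direction. Of these, 2 passed 2-fold, 1 of Dbp and 1 of Cyb5r3. The Dbp pair is built on the same sequence record. Beside these shares, 48.6% of all tested probe sets outside rc_AA were positive and 51.4% negative.

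Several genes led the intermediate side besides the cardiac ones. Tgfb3, a transforming growth factor of tissue remodelling, read 760.4 on the intermediate array against 279 on the late array with 352, 430.0 and 585 elsewhere, though a second probe set gave 488 against 406. Vegfa, the main growth factor of blood vessels, passed 2-fold on 1 probe set, 590.4 against 201, while its 3 further probe sets pointed the other way at -0.12, -0.31 and -0.32. Wdr74, a ribosome assembly factor, read 1087 against 462. Ndrg4, a gene of heart and brain, read 1001 against 465, with a partner at -0.05, and Adgrl2, an adhesion receptor, 435 against 192, with partners at 0.16 and -0.28. Fst, follistatin, which captures activin, read 2707 on the intermediate array against 1346 on the late array, and 734, 870 and 844 elsewhere. Both later dust arrays were above the rest, and a second probe set on the same tag differed by 1.05.

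Bounds against the floor on the intermediate side came from dim probe sets. Ggt1, which breaks down extracellular glutathione, read 765 on the intermediate array, at least 4.44-fold above the late array. All 4 other arrays were below the floor for this gene. Trpc1, a cation channel, read 556 with the late array at the floor and 424 and 319 in sham and untreated. A second Trpc1 probe set was at the floor on both dust arrays compared. Nos2, the inducible nitric oxide synthase, read 418 on 1 probe set against the floor, whereas others read 681 against 558 (0.29) and 214 against 196 (0.13). Il13, a type 2 cytokine, read 385 against the floor, with 465 in sham, and Plec, the linker protein plectin, 424 against the floor, with a brighter Plec probe set at 0.03.

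Of the 52 calls on the late side outside rc_AA, the intermediate array was the lowest of all 5 for 36, and the late array was the highest for 23. The call partly sets these ranks too. Cyb5r3, a reductase that keeps haemoglobin and fatty acid desaturation supplied with electrons, read 267 on the intermediate array against 1445 on the late array, 5.41-fold. Its probe sets disagreed: a second gave 234 against 614 (-1.39), and 3 brighter ones -0.51, -0.12 and 0.12. Cyp2a3, a cytochrome P450 of the rat airway, read 253 against 717, with 283, 410.0 and 1060 elsewhere, and -0.82 on a second probe set. S100g, the calcium carrier calbindin-D9k, read 1590 against 3522, and 3702, 3453 and 3083 on the remaining arrays, so that the intermediate array alone was low. Its brighter probe set gave 7634 against 10313, a difference of -0.43.

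The other measured late-side genes chosen by size of difference were dim on the intermediate array, between 181 and 315. Serpind1, the thrombin inhibitor heparin cofactor, read 198 against 556, Chrnb1, a subunit of the muscle acetylcholine receptor, 181 against 496, and Cpz, a carboxypeptidase of the extracellular matrix, 315 against 825. Fntb, a subunit of farnesyltransferase, read 186 against 498, but 1028 against 758 on a brighter probe set, the opposite direction. Cela2a, an elastase, read 204 against 528, Pccb, a subunit of propionyl-CoA carboxylase, 185 against 448, Apobec1, an RNA-editing deaminase, 189.9 against 452, and Ptpn23, an endosomal phosphatase, 183 against 424. A brighter Ptpn23 probe set read 972 against 1058, a difference of -0.12, so the call was not shared by it. Bounds came from Mdm2, the ligase that degrades p53 (474 against the floor), Ocln, the tight junction protein occludin (435), Ptgfr, the receptor for prostaglandin F (419), RT1-DMb, which loads peptides onto class II molecules (396), Ptprs, a receptor phosphatase (393), and Crem, a cyclic AMP-responsive factor (385). Of 2 brighter Ocln probe sets, 1 gave 0.05 and 1 gave -0.53. A brighter Mdm2 probe set gave -0.02, those of RT1-DMb gave -0.52 and -0.54, and a further Crem probe set gave 0.04. Brighter Ptprs probe sets gave -0.30 and -0.47, and the further Ptgfr probe sets were at the floor on both arrays.

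Cytokines, acute phase and complement genes were split in direction. Of 19 cytokine and chemokine genes tested, 11 were negative with a median of -0.07, and Il13 was the gene called. Among genes read without rc_AA probe sets, as these 19 were, 48.7% were positive and 0.896% were called on the intermediate side. Il1b, the inflammatory interleukin, read 3447 on the intermediate array against 2054 on the late array after 4474 early, and 1129 and 691 in sham and untreated. Ccl2, which attracts monocytes, read 5361 against 4272 after 7089 early, though a dimmer probe set differed by -0.21. For these genes all 3 dust arrays lay above both arrays without dust. Cxcl10, an interferon-induced chemokine, went the other way at 332 against 509.6. Orm1, an acute phase glycoprotein, read 2397 against 1200 (0.998 on the log2 scale, just under 2-fold), with 499, 277 and 186 elsewhere. C3, the central complement component, read 13110.5 against 8463, and C4bpa, a complement inhibitor, 3107 against 1721, both highest on the intermediate array.

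Antioxidant genes were more often positive than all genes tested, less so without rc_AA probe sets, and sterol genes were more often negative. Of 30 antioxidant and glutathione genes, 23 were positive with a median of 0.14, and 2 were called, Ggt1 and Gpx2. Without rc_AA probe sets 16 of 27 were positive with a median of 0.12, and Ggt1 was the gene called. Over all genes tested 54.0% were positive, and 48.7% without rc_AA probe sets. Hmox1, haem oxygenase, read 7284 against 4577 after 15547 early, and Sod2, the mitochondrial superoxide dismutase, 1732 against 1069 after 3061. Sod3, the extracellular form, ran the other way at 736 against 1307. Of 15 genes of sterol synthesis, 12 were negative with a median of -0.15 and the late array was the highest of 5 for 9. Fdft1, which makes squalene, read 839 against 1313, while its further probe sets gave 0.16, 0.22 and -0.12. Mvk, mevalonate kinase, read 229 against 411, and Fdps, farnesyl diphosphate synthase, 1659 against 2231. Nsdhl was the gene called, on the intermediate side (477 against 224), through an rc_AA probe set.

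Cell types of the alveolar wall and airway differed little. Sftpc, the surfactant protein of alveolar type 2 cells, read 71889 and 67155, and Ager, a marker of alveolar type 1 cells, 26291 and 26792. Scgb1a1, the secretoglobin of club cells, read 22995 and 25271. The type 2, type 1, club, ciliated, endothelial and mast cell lists had 0 called genes, with medians between -0.27 and 0.13.

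**Figure D5:**
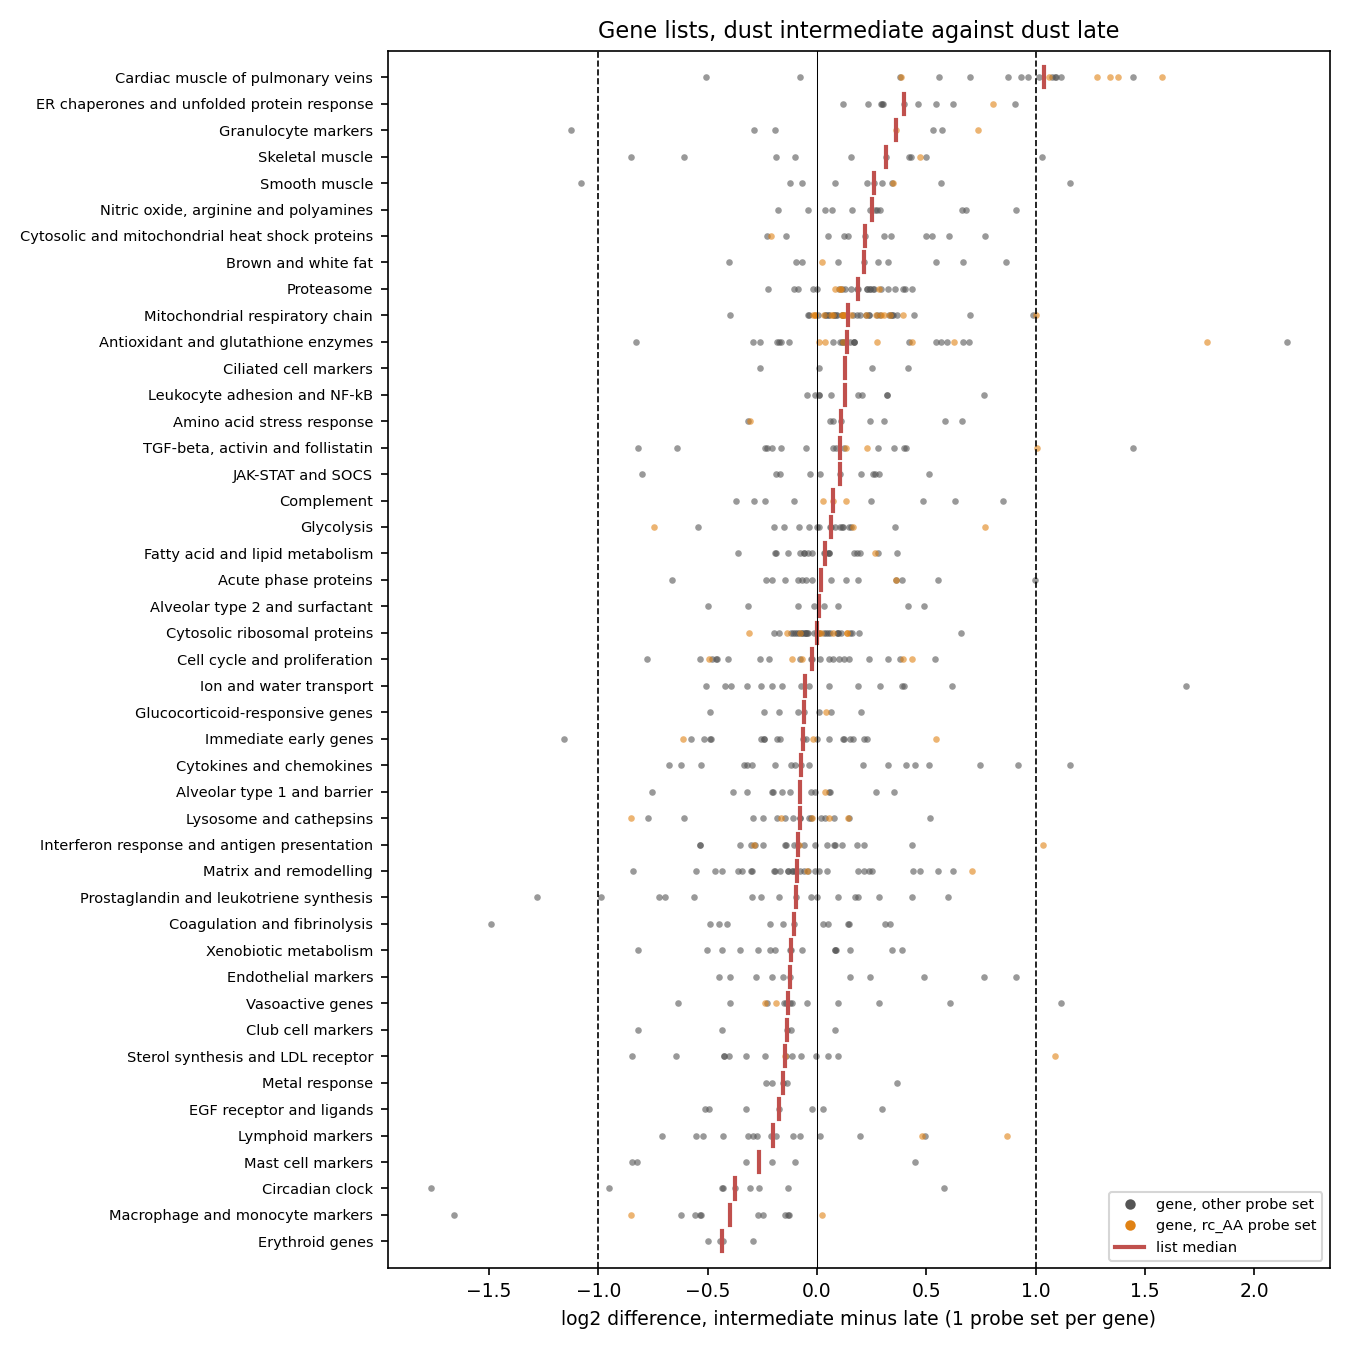
Each row is 1 of the 45 gene lists, ordered by its median; points are tested genes (1 probe set per gene, orange where it is an rc_AA probe set), the red bar is the list's median, and dashed lines mark a 2-fold difference between dust intermediate and dust late. The cardiac muscle list has a median of 1.04, and the other 44 medians lie between -0.44 and 0.40.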

How the data were processed

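Lung RNA pools were measured on 5 oligonucleotide arrays, 1 per group. Each probe set has 1 deposited intensity per array, on a linear scale. The authors' algorithm and software are not stated in the sources used here. The values were already scaled between arrays, since the trimmed mean of the deposited intensity was 999.97 on all 5. Control probe sets (59) served only for the ratios of 5′ to 3′ signal. Intensities were multiplied to equal medians (factors 1.07 intermediate, 1.03 late), floored at 172.33 and taken to log2 in Python 3.11.15 with pandas 2.3.3 and NumPy 2.4.6, and the fold rule was tested on simulated data.

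A platform annotation gave 7006 probe sets 1 symbol, 308 several and 1426 none. Of the 7006, 6985 had identifiers in a RefSeq table of GRCr8, and 0 symbols changed. Each of the 4736 genes was read on 1 probe set, the brightest on average (mean log2) across all arrays.

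Per direction, named genes were the 12 largest measured differences and the 6 largest bounds outside rc_AA, and the 8 and 4 in rc_AA; per list, up to 5 called members or the 2 brightest. Other list members and the rc_AA number blocks were chosen after their values were seen. The contrast, members and lists were chosen with earlier results of these data known. The number of arrays limits the precision.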

Additional observations from a re-analysis of the deposited data

How the results depend on the processing

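No paired analysis was possible because each group has 1 array. Of the 66 called named probe sets, 62 stayed past 2-fold with the values as deposited, 62 with scaling to the 75th percentile, 61 after quantile normalization and 62 with rc_AA and other probe sets scaled separately. More calls were lost under other settings: with the floor at the 60th percentile 24 of 50 stayed and 26 were lost, with the probe set chosen on the 3 other arrays 52 stayed, 10 were lost and 4 reversed, and without rc_AA 30 of 45 stayed, 10 were lost and 5 reversed. All 66 stayed with the lower floor, and 48 of 48 with both arrays above the floor. Neither of these settings could lose a call, so they are no check. A lower floor can only keep or widen a called difference, and the other setting only leaves probe sets out. The counts depend on the floor. Outside rc_AA, the counts higher on the intermediate and late arrays were 311 and 300 with the floor at the 20th percentile, 18 and 9 at the 60th, and 32 and 34 with both arrays above the floor; for rc_AA they were 179 and 60, then 68 and 1. Scaling rc_AA separately gave 63 and 19 in rc_AA, and moved their share higher on the intermediate array from 94.8% to 76.8%. Sham and untreated differed 2-fold in 1047, 52 and 133 of all probe sets under the same 3 settings, against 222. The cardiac median was 0.92 and 7 genes were called after quantile normalization, and 7 were called without rc_AA. The macrophage median was -0.27 with the lower floor, -0.26 with the higher floor and -0.27 with both arrays above it; the chaperone and clock medians moved by less than 0.1 throughout. With each gene read on the probe set brightest on the 3 other arrays, the differences reversed for Vegfa (-0.31), Ocln (0.053), Fntb (0.44) and Cyb5r3 (0.12), and without rc_AA for Csnk2a1 (-0.15), Vegfa (-0.32), Ocln (0.053), Fntb (0.44) and Cyb5r3 (0.12), since another probe set is then read. What a second array per group would show was not measured.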
